A study of Mus musculus with 8 samples.

Results

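The genes of DNA replication and S phase were followed in left ventricles of mice of the C57BL/6J strain that had undergone ischemia-reperfusion, an injury in which blood flow to part of the heart is stopped and then restored. The members were 37 listed genes, found by symbol among 38293 gene identifiers, and each matched 1 identifier. All 37 passed the filter on low counts, as did 13972 genes in all. All hearts were injected 2 times into the myocardium with 10 µl of UPy-PEG, a hydrogel of self-assembling polymer that releases its load slowly, and were taken 3 days after injury. The gel carried no drug in the hydrogel group (4 libraries) and antimiR-195, an oligonucleotide that blocks the microRNA miR-195, in the antimiR-195 group (4 libraries). Both groups therefore share the strain, the injury and the gel, and no uninjured or uninjected heart was analysed here. The labels used give no age, and they do not say whether the 8 libraries came from 8 animals, so a p-value here speaks of the spread between libraries, which may be technical. The tissue is a mixture of cell types, and in such bulk RNA fewer cells of a type and less RNA per cell cannot be told apart.

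Replication begins when the origin recognition complex, CDC6 and CDT1 load the ring-shaped MCM2-7 helicase on DNA. In S phase MCM10, CDC45 and the GINS complex turn the loaded ring into an active helicase, and DNA polymerases, the sliding clamp PCNA and its loader RFC copy the strands. Most of these genes are transcribed under E2F transcription factors around entry into S phase. Adult cardiomyocytes rarely replicate and divide, whereas fibroblasts, endothelial cells and leukocytes proliferate after infarction. MicroRNAs of the miR-15 family, to which miR-195 belongs, are known to repress cell cycle genes in the heart, and pairing of the microRNA seed, bases 2 to 8, with a 3′ UTR is the main basis of target recognition.

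The targeted microRNA and 4 relatives are printed because they share 1 seed, so a site for one is a site for all of them. The capitals mark the seed, 5′ to 3′, from RefSeq on GRCm38.p6. miR-195a-5p lies at chr11:70235062-70235082 on the plus strand, and miR-497a-5p at chr11:70234730-70234751 on the same strand.
miR-195a-5p: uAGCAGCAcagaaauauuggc
miR-497a-5p: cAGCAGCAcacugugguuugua
miR-15a-5p: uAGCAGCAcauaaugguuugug
miR-15b-5p: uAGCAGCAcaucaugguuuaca
miR-16-5p: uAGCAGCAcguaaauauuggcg

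Matches to this seed were searched in the longest annotated 3′ UTR of each gene, in GENCODE release M21 on GRCm38. The classes were TGCTGCTA (8mer), TGCTGCT (7mer-m8) and GCTGCTA (7mer-A1). Of the 36 members with a UTR of at least 50 bases, 6 held a match, or 16.7%, against 3671 of 12874 tested genes, or 28.5%. The members' UTRs were shorter, with a median of 768.5 bases against 1205 bases. The 8 matches lie in Cdc6, which loads the helicase, Mcm5, a helicase subunit, Gins2, a helicase activator, Ung, a uracil DNA glycosylase, Chaf1a, a histone chaperone, and Ccne1, cyclin E1. They are printed because they are the places in the members' mRNAs where the letters would pair with the targeted microRNA's seed, and the capitals mark the match.
Cdc6, chr11:98923628-98923656, plus strand: aggcctttcctTGCTGCTttttctcaccg
Mcm5, chr8:75127654-75127682, plus strand: ttgagtccctgGCTGCTAaggtcagtgga
Gins2, chr8:120580993-120581022, minus strand: agagtacagacTGCTGCTAtaagtggctaa
Ung, chr5:114138641-114138669, plus strand: tcggtcccgtgTGCTGCTctggggtggga
Ung, chr5:114138696-114138724, plus strand: agtttggtgccTGCTGCTgtccgctttat
Chaf1a, chr17:56069527-56069555, plus strand: catccaacagcTGCTGCTtgtgccgcgcc
Ccne1, chr7:38098257-38098285, minus strand: gtgctccagaaGCTGCTAaggagggtgct
Ccne1, chr7:38098012-38098041, minus strand: tattttgtaagTGCTGCTAtgtctatcaat

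The members' promoters were searched for 4 letter strings of the E2F type on both strands, TTTCCCGC, TTTGGCGC, TTTCGCGC and TTTGCCGC. The window was the RefSeq stretch from 250 bases before to 50 bases after a start site, on GRCm38.p6. Some windows, among them those of Cdc6, Mcm7, E2f1 and Dut, lie wholly within the GENCODE span of their gene. Of 32 members with such a window, 13 held at least 1 match, or 40.6%. Of 10558 tested genes with a window 482 did, or 4.57%, and of all 32851 RefSeq windows a share of 2.26% did. Windows of Mcm4, Gins1, Gins2, Pole and Ccne2 were not used here. The string TTTCGCGC occurred in 7 members, TTTCCCGC in 6, TTTGGCGC in 5 and TTTGCCGC in 0. More than 1 match fell in the windows of Mcm3, Mcm5, Mcm6, Mcm7 and Rfc3, where matches can overlap each other. The remaining members with a match were Orc1, Cdc6, Cdt1, Pola1, Pold1, Lig1, Uhrf1 and Hells. The letters CCAAT or their reverse complement, the core of the NF-Y site, occurred in 56.3% of the members with a window and in 42.6% of the tested genes. The median GC content of the members' windows was 63.0%, against 60.7% for the tested genes. Stretches from the windows of 4 members are shown because they differ in how the matches lie, with the match in capitals. The Cdc6 and Pola1 stretches hold 1 match, the Mcm5 stretch 2 overlapping ones, and the Mcm6 stretch 3, of which the first 2 overlap. The Cdc6 stretch lies inside the gene's GENCODE span, chr11:98907801-98923940. The stretches of Mcm5, Mcm6 and Pola1 lie before the start of theirs.
Cdc6, chr11:98907983-98908050, plus strand: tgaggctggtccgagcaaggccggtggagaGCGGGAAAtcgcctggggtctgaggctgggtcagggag
Mcm5, chr8:75109326-75109397, plus strand: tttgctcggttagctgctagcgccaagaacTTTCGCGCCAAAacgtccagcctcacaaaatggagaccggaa
Mcm6, chr1:128359715-128359845, minus strand: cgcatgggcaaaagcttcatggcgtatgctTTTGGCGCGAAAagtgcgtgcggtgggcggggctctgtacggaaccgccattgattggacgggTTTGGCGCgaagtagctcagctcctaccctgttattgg
Pola1, chrX:93632256-93632323, minus strand: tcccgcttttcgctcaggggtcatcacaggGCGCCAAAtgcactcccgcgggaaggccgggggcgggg

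Libraries held 16872968 to 22751753 gene counts. One library stood apart, the second of the antimiR-195 group: its correlation with the other 7 over log2 values of all tested genes was 0.944 to 0.970, while the other pairs reached 0.978 to 0.991. Its levels also fell most with gene length. The change per doubling of length was -0.21 on the log2 scale, against -0.08 to 0.15 in the other libraries, where positive values are rises. All 8 cardiomyocyte markers were found. Their summed levels were 60585 to 75447 CPM in the hydrogel libraries and 62430 to 79587 CPM in the antimiR-195 libraries. The left ventricular origin was taken from the labels. CPM are gene counts scaled to a common library size. Values with and without the second antimiR-195 library are therefore given for the main results.

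The members were weakly to moderately expressed. RPKM, a read count divided by gene length and library size, was used wherever levels of different genes were compared. The members' median was 2.59 RPKM, below the 4.40 RPKM of all tested genes, and 8 of 37 members were at or above that value. The clamp gene Pcna was highest at 14.1 RPKM. It was followed by Dut, which removes dUTP, at 11.2 RPKM, Ung at 9.63 RPKM, Mcm6 at 8.33 RPKM and Rrm1, the large subunit of ribonucleotide reductase, at 7.95 RPKM. At the low end stood Pole, the catalytic subunit of DNA polymerase epsilon, at 0.485 RPKM, Cdc6 at 0.421 RPKM, Mcm10 at 0.357 RPKM and Orc1, the largest subunit of the origin recognition complex, at 0.212 RPKM. Counts of a member in a library ran from 6 to 811, and Orc1 was the 1 member with fewer than 10 counts in any library.

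**Figure D1:**
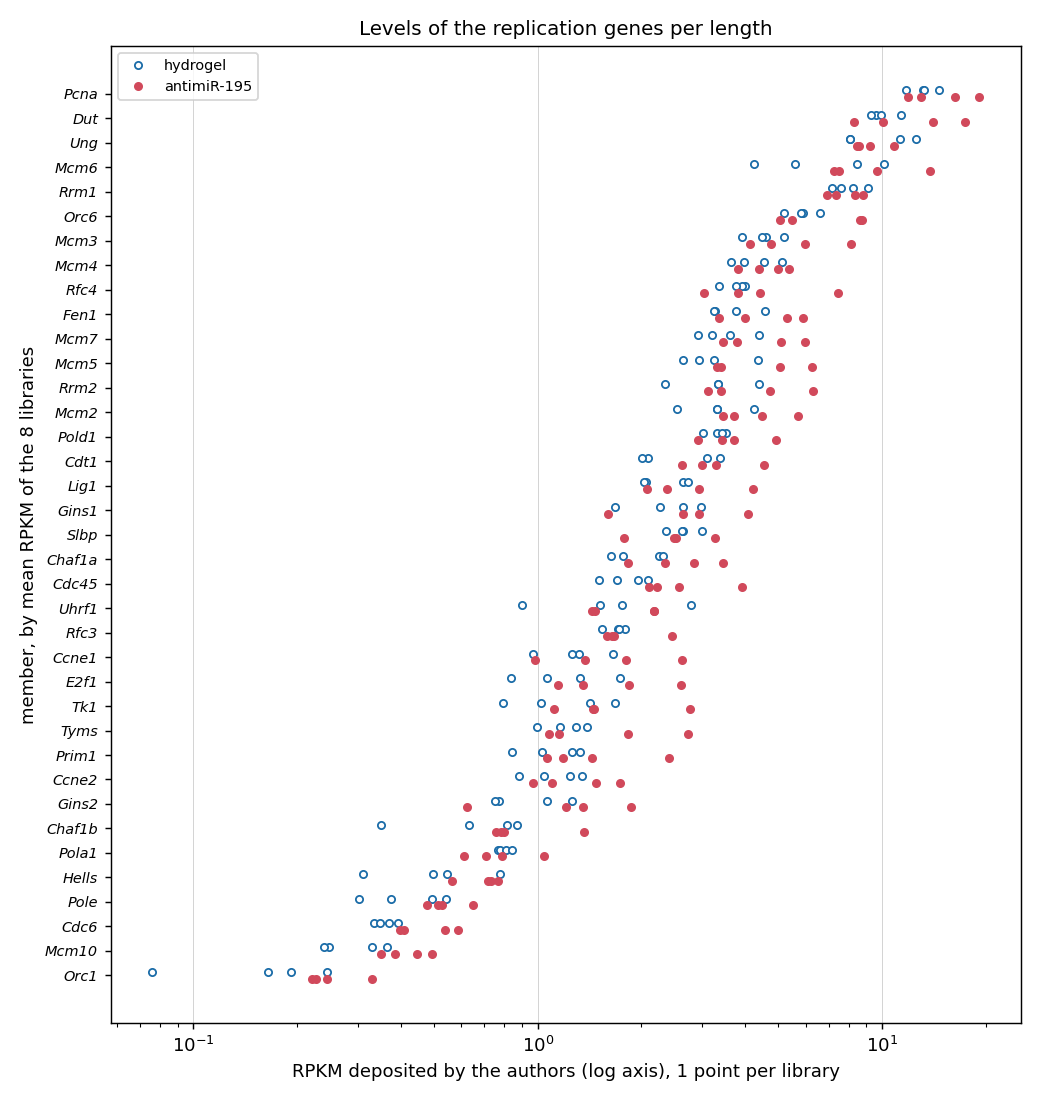
Deposited RPKM of the 37 members on a log axis, 1 point per library and coloured by group, ordered by the mean over the 8 libraries. Pcna is highest with a mean of 14.1 RPKM and Orc1 lowest with 0.212 RPKM.

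Genes whose products work in 1 complex did not have equal RPKM. Over the MCM2-7 ring, whose subunits are present once each, the highest subunit was 1.67 to 2.76 times the lowest in a library. Mcm6 stood at 1.36 to 2.24 times the mean RPKM of the other 5. Such ratios depend on the gene lengths that the deposited values imply, 2901 bases for Mcm6 and 4426 bases for Mcm7. Whether those lengths match the transcripts present was not tested, so differences in mRNA level between subunits are uncertain. The GINS gene Gins1 was 2.52 ± 0.454 times Gins2 in the hydrogel group and 2.28 ± 0.199 times under antimiR-195 (SD, n = 4 each). The exons of Gins2 overlap those of Gse1 on the opposite strand by 2758 bases, so its level is uncertain. Chaf1a, the large subunit of chromatin assembly factor 1, was 3.26 ± 1.18 times Chaf1b in the hydrogel group and 2.89 ± 0.627 times in the antimiR-195 group. The exons of all annotated Chaf1a transcripts together overlap those of Ubxn6 by 4648 bases on the opposite strand. The deposited values imply a shorter gene length of 3308 bases, so how much of this overlap was counted is not known. The level of Chaf1a is uncertain for this reason.

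At the protein level the small subunit of ribonucleotide reductase, encoded by Rrm2, is made around S phase. The large subunit protein, encoded by Rrm1, is more stable through the cycle. The ratios here are of mRNA and do not measure the proteins. The RPKM ratio of Rrm2 to Rrm1 was 0.404, 0.440, 0.328 and 0.482 in the hydrogel libraries and 0.567, 0.717, 0.424 and 0.492 in the antimiR-195 libraries. The groups overlapped, since the third antimiR-195 library lay below 2 hydrogel libraries. The ratio was 0.414 ± 0.0650 in the hydrogel group and 0.550 ± 0.126 under antimiR-195 (mean ± SD of 4), and it was not tested.

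Gel with antimiR-195 was compared with drug-free gel by edgeR's quasi-likelihood test over all genes, with Benjamini-Hochberg adjustment and a threshold of 0.05. No group with a control oligonucleotide was analysed here, so blocking of miR-195 and the presence of an oligonucleotide cannot be told apart. No member was called, and no gene of the 13972 tested was called either, which is 0% (smallest adjusted p = 0.9999). The members nevertheless lay mostly on 1 side. Of 37, 33 had a positive log2 fold change of antimiR-195 over hydrogel, against 52.4% of all tested genes. Their median was 0.33 on the log2 scale, against 0.01 for all genes, with a range from -0.15 to 0.58. The standard errors of the members had a median of 0.20. In the same edgeR test 2 members had an unadjusted p below 0.05, Cdc45 and Mcm10, both with higher levels under antimiR-195. Over all genes 0.83% were higher and 0.444% lower at that level. DESeq2 also called 0 members and gave 2 at an unadjusted p below 0.05, and limma-voom with quality weights called 0 and gave 0. In 3 members, Cdc6, Mcm10 and Cdc45, every antimiR-195 library was above every hydrogel library, and in 0 members the reverse held. Over all tested genes these shares were 0.53% and 0.544%. Without the second antimiR-195 library the members' median was 0.14, 30 members were positive and 0 had an unadjusted p below 0.05.

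**Figure D2:**
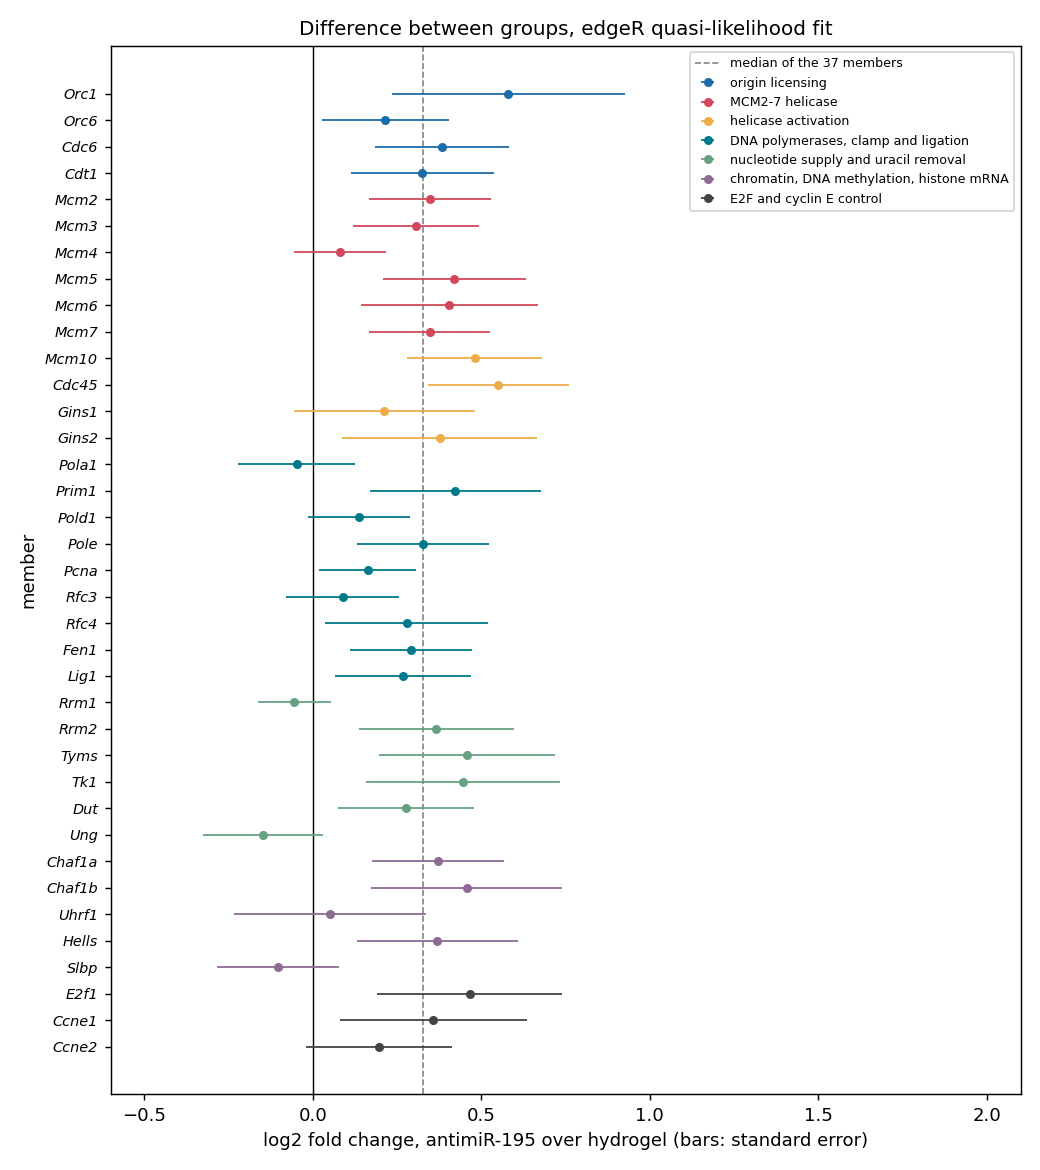
Log2 fold change of each member, antimiR-195 over hydrogel, from the edgeR quasi-likelihood fit, with bars of 1 standard error and colours for the roles. Of the 37 points 33 lie right of 0 around a median of 0.33 (dashed line), and Pola1, Rrm1, Ung and Slbp lie left of it.

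Origin licensing genes, which mark and load origins, had positive fold changes in 4 of 4 members with a median of 0.35, or 0.22 without the second antimiR-195 library, and none was called. Cdc6 (ENSMUSG00000017499, chr11:98907801-98923940 on GRCm38, plus strand) was at 1.75, 1.86, 2.03 and 2.00 CPM in the hydrogel libraries and at 2.75, 2.95, 2.09 and 2.16 CPM in the antimiR-195 libraries. The groups did not overlap, but the third and the fourth antimiR-195 libraries were close to the hydrogel libraries. Its log2 fold change was 0.38 ± 0.20 (SE), and 0.28 without the second antimiR-195 library. Orc1 (ENSMUSG00000028587, chr4:108579423-108614833) was at 0.846, 0.685, 0.277 and 0.555 CPM against 1.12, 0.821, 0.778 and 0.797 CPM. It had the members' highest fold change, 0.58 ± 0.35, and also their highest standard error, and the first hydrogel library lay above 3 antimiR-195 libraries. Without the third hydrogel library, which held 6 reads of it, the fold change was 0.33. Cdt1, the partner of CDC6 in loading, was at 5.82 ± 1.36 CPM with drug-free gel and 7.27 ± 1.62 CPM with antimiR-195 (mean ± SD, n = 4 each, here and for the members that follow). Orc6, the smallest subunit of the origin complex, was at 9.82 ± 0.934 and 11.4 ± 3.01 CPM, with the first and second antimiR-195 libraries above all others and the remaining pair at 9.16 and 8.43 CPM. The fold changes of Cdt1 and Orc6, 0.32 ± 0.21 and 0.21 ± 0.19, were 0.15 and 0.090 without the second antimiR-195 library. Orc6 and Orc1 overlap exons of Vps35 and Gm12743 on the opposite strand, by 171 and 376 bases.

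The MCM2-7 genes encode the 6 subunits of the replicative helicase, and 6 of 6 had positive fold changes with a median of 0.35, again with none called. Without the second antimiR-195 library 6 of 6 were positive with a median of 0.19. Mcm5 (ENSMUSG00000005410, chr8:75109569-75128439, plus strand) was at 11.1, 10.3, 9.51 and 14.5 CPM with drug-free gel and at 16.9, 20.6, 11.7 and 11.4 CPM with antimiR-195. The first and second antimiR-195 libraries were above all others, and the remaining pair lay inside the hydrogel range. Its log2 fold change was 0.42 ± 0.21, and 0.23 without the second antimiR-195 library. Mcm6 (ENSMUSG00000026355, chr1:128331590-128359664, minus strand) was at 24.5, 16.6, 13.0 and 28.6 CPM against 27.5, 38.5, 22.0 and 21.2 CPM. Here the spread within the hydrogel group, between the third and the fourth library, was wider than the difference between the group means, 20.7 ± 7.16 and 27.3 ± 7.96 CPM. The fold change was 0.40 ± 0.26, and 0.19 without the second antimiR-195 library. Mcm2 was at 11.4 ± 2.02 and 14.4 ± 3.03 CPM, Mcm3 at 13.7 ± 1.11 and 16.9 ± 4.81 CPM, and Mcm7 at 15.7 ± 2.40 and 19.99 ± 4.67 CPM. Their fold changes of 0.35, 0.31 and 0.35 were 0.19, 0.098 and 0.20 without the second antimiR-195 library. Mcm4 differed least, with 15.6 ± 1.84 CPM with drug-free gel, 16.5 ± 2.09 CPM with antimiR-195 and a fold change of 0.079 ± 0.14, or 0.0058 without the first antimiR-195 library. In Mcm4 the first antimiR-195 library was highest, not the second. Mcm7 hosts the microRNA genes Mir25 and Mir93, which overlap its exons only as pooled over all annotated transcripts, by 84 and 88 bases. On the opposite strand it overlaps Ap4m1 by 321 bases and Cops6, with a mean of 1492 reads per library, by 64 bases.

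Helicase activation genes had the highest median of the 7 roles, 0.43, with 4 of 4 positive. Without the second antimiR-195 library the median was 0.23 and 3 of 4 were positive. Cdc45 (ENSMUSG00000000028, chr16:18780447-18811987, minus strand), a part of the active helicase, was at 4.71, 3.91, 3.55 and 4.27 CPM in the hydrogel libraries and at 5.66, 8.53, 4.79 and 5.07 CPM in the antimiR-195 libraries. The groups did not overlap, and the gap between the first hydrogel library and the third antimiR-195 library was narrow. The gene shares 209 exonic bases with Ufd1 on the opposite strand. The log2 fold change was 0.55 ± 0.21, with an adjusted p of 0.9999 in edgeR's test, and 0.32 without the second antimiR-195 library. Mcm10 (ENSMUSG00000026669, chr2:4989714-5012791, minus strand), which helps to open the double helix, was at 1.90, 2.59, 1.94 and 2.72 CPM against 3.36, 3.67, 2.99 and 2.73 CPM. The fourth libraries of both groups nearly met. Its fold change was 0.48 ± 0.20 (adjusted p = 0.9999, edgeR), and 0.40 without the second antimiR-195 library. The fold changes of Gins1 and Gins2 were 0.21 ± 0.27 and 0.38 ± 0.29, and -0.012 and 0.14 without that library. Gins1 spanned 2.59 to 4.50 CPM with drug-free gel and 2.45 to 5.96 CPM with antimiR-195, so its antimiR-195 range held the whole hydrogel range.

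Among 9 genes of DNA polymerases, clamp and ligation, 8 were positive, with a median of 0.27 and none called. Without the second antimiR-195 library 6 were positive and the median was 0.037. Prim1, the primase subunit that starts each strand, had the highest fold change of the role. It was at 4.87, 4.06, 3.42 and 4.995 CPM in the hydrogel libraries and at 5.43, 8.97, 4.61 and 4.16 CPM in the antimiR-195 libraries. The second antimiR-195 library stood well above the other 7, and the fold change of 0.42 ± 0.25 was 0.12 without it. Pola1, the catalytic subunit of the polymerase that works with primase, had a fold change of -0.05 ± 0.17. It was at 6.72, 6.99, 7.48 and 7.22 CPM against 8.96, 5.20, 7.002 and 6.32 CPM, so the second antimiR-195 library was here the lowest of all and the first the highest. The RPKM ratio of Prim1 to Pola1 was 1.40 ± 0.276 in the hydrogel group and 3.93 in that library, against 1.38 to 1.499 in the other 3 antimiR-195 libraries.

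The clamp gene Pcna (ENSMUSG00000027342, chr2:132249162-132253314, minus strand) was at 34.9, 28.8, 33.2 and 30.8 CPM with drug-free gel and at 38.2, 44.4, 28.8 and 31.6 CPM with antimiR-195. The groups overlapped, and the fold change of 0.16 ± 0.14 was 0.031 without the second antimiR-195 library. Its pseudogene Pcna-ps2 held a mean of 62.4 reads per library, and reads of the 2 copies may be split between them. Rfc4, a clamp loader subunit, was at 5.83 ± 0.562 and 7.08 ± 2.76 CPM, with 11.05 CPM in the second antimiR-195 library and 4.73 to 6.61 CPM in the other 3. Its fold change of 0.28 ± 0.24 was -0.03 without that library. The fold changes of the clamp loader gene Rfc3 and of Pold1, the catalytic subunit of polymerase delta, were 0.09 ± 0.17 and 0.14 ± 0.15, and they were -0.08 and -0.02 without that library. Pole, which copies the leading strand, was at 4.12 ± 0.925 and 5.15 ± 0.641 CPM. Fen1, which trims Okazaki fragments, was at 9.06 ± 1.22 and 11.1 ± 2.53 CPM, and Lig1, which seals them, at 11.6 ± 1.47 and 13.9 ± 4.23 CPM. The fold changes of Fen1 and Lig1, 0.29 ± 0.18 and 0.27 ± 0.20, were 0.16 and 0.037 without the second antimiR-195 library, and that of Pole, 0.33 ± 0.20, was 0.20 without the third hydrogel library. On the opposite strand Rfc4 shares 194 exonic bases with Eif4a2, which held a mean of 3225 reads per library, and Fen1 shares 130 with Tmem258, with 916 reads, and 1909 with Gm10143, with 0.25 reads.

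Nucleotide supply and uracil removal was the role with the most mixed directions, 4 of 6 positive, with a median of 0.32, or 0.095 without the second antimiR-195 library. Tyms, which makes thymidylate from dUMP, was at 7.83, 7.24, 6.37 and 8.21 CPM in the hydrogel libraries and at 10.9, 16.0, 7.06 and 6.66 CPM in the antimiR-195 libraries. The first and second antimiR-195 libraries were above all others, and the third and the fourth within the hydrogel range. The fold change was 0.46 ± 0.26, and 0.14 without the second antimiR-195 library. Tk1, which salvages thymidine, was at 7.35, 5.43, 4.34 and 8.49 CPM against 7.34, 13.9, 7.66 and 5.87 CPM. Only the second antimiR-195 library lay above the hydrogel range, and the fold change of 0.45 ± 0.29 was 0.12 without it. Rrm2 had a fold change of 0.37 ± 0.23, and 0.15 without that library, while Rrm1 was at 32.3 ± 2.36 and 31.1 ± 2.71 CPM with a fold change of -0.05 ± 0.11. Rrm1 varied least of all members, by 1.26 times from the lowest to the highest library. Dut was at 24.5 ± 2.98 and 29.6 ± 9.09 CPM, and its fold change of 0.28 ± 0.20 was 0.074 without the second antimiR-195 library. Ung, the enzyme that removes uracil from DNA, had the lowest fold change of the members, -0.15 ± 0.18, and was at 20.7, 29.6, 33.8 and 20.1 CPM against 21.5, 26.9, 21.8 and 24.0 CPM. All 4 antimiR-195 libraries lay within the hydrogel range, and without the third hydrogel library the fold change was 0.0024.

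Among 5 genes of chromatin assembly, methylation maintenance and histone mRNA, 4 were positive with a median of 0.37. The median was 0.21 without the second antimiR-195 library and 0.19, with 3 of 5 positive, without the third hydrogel library. The subunits of chromatin assembly factor 1 had fold changes of 0.37 ± 0.20 for Chaf1a and 0.46 ± 0.28 for Chaf1b, and 0.21 and 0.22 without the second antimiR-195 library. Chaf1b was at 4.07, 3.23, 1.85 and 4.22 CPM against 3.70, 6.56, 3.95 and 4.04 CPM, so 3 of the 4 antimiR-195 libraries lay inside the hydrogel range. Hells, a chromatin remodeller of DNA methylation, was at 3.91, 3.67, 2.35 and 5.44 CPM against 5.04, 5.09, 5.57 and 4.10 CPM. It was the 1 member highest in the third antimiR-195 library. Its fold change of 0.37 ± 0.24 was 0.19 without the third hydrogel library. Uhrf1, which recruits the maintenance methyltransferase, had a fold change of 0.05 ± 0.28. It was at 7.46, 6.60, 4.02 and 11.5 CPM against 9.08, 8.97, 6.28 and 6.21 CPM, so the hydrogel group held both the lowest and the highest library. Slbp, which binds the stem-loop of replication-dependent histone mRNAs, had a fold change of -0.10 ± 0.18, and the second antimiR-195 library was the lowest at 7.71 CPM, below the 10.3 to 14.3 CPM of the rest.

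The control genes E2f1, Ccne1 and Ccne2 encode an activating E2F factor and the cyclins that drive entry into S phase, and 3 of 3 were positive with a median of 0.36, or 0.14 without the second antimiR-195 library. E2f1 was at 4.18, 3.42, 2.77 and 5.33 CPM in the hydrogel libraries and at 5.66, 7.93, 3.65 and 4.33 CPM in the antimiR-195 libraries. The groups overlapped, and the fold change of 0.46 ± 0.28 was 0.21 without the second antimiR-195 library. Ccne1, an established target of the miR-15 family with 2 seed matches printed above, was at 3.49, 2.64, 3.51 and 4.27 CPM against 4.71, 6.73, 2.63 and 3.70 CPM. The lowest and the highest of the 8 values were both antimiR-195 libraries. Its fold change was 0.36 ± 0.28, and 0.08 without the second antimiR-195 library. Ccne2 was at 3.98 ± 0.724 and 4.56 ± 1.13 CPM, with a fold change of 0.20 ± 0.22 that was 0.040 without the first antimiR-195 library. It shares 609 exonic bases with Ints8 on the opposite strand.

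**Figure D3:**
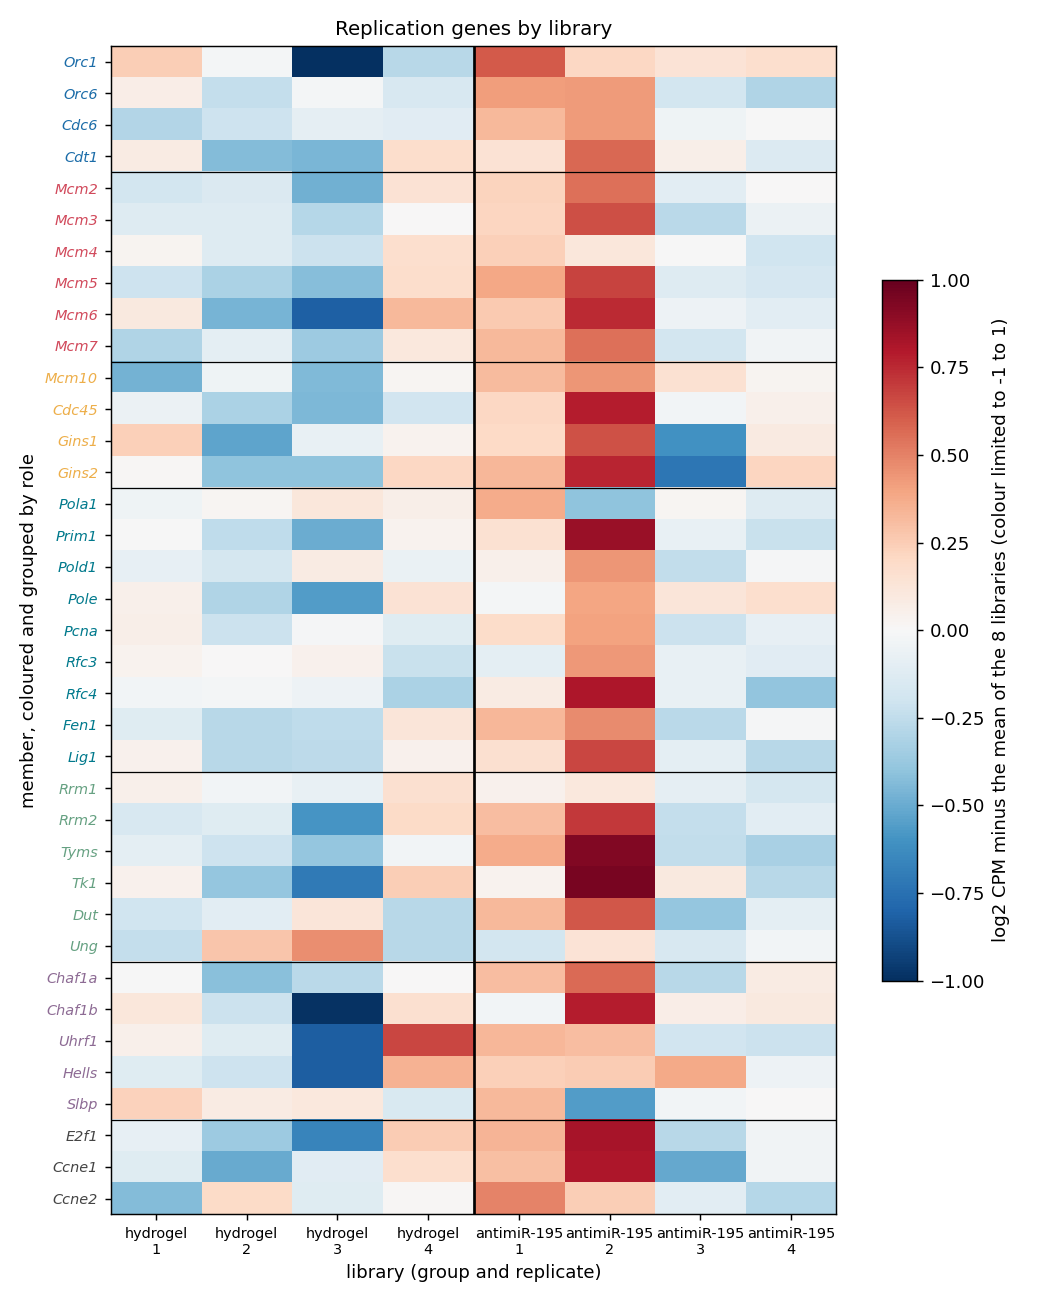
Level of each member in each library as log2 CPM minus the member's mean over the 8 libraries, with members in rows by role, libraries in columns by group, and red above and blue below the mean. The second antimiR-195 column is the highest in 28 of 37 rows, and the third hydrogel column the lowest in 18.

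The difference between the groups was carried unevenly by the libraries. The second antimiR-195 library was the highest of the 8 in 28 of 37 members, or 75.7%, and in 30.8% of all tested genes. It was the highest by mean deviation in each of the 7 roles, and the lowest in 2 members, Pola1 and Slbp. The third hydrogel library was the lowest in 18 of 37 members, while it was lowest in 13.0% of all tested genes. The members' mean deviation from their own mean was -0.05, -0.19, -0.32 and 0.05 on the log2 scale in the hydrogel libraries and 0.23, 0.49, -0.13 and -0.08 in the antimiR-195 libraries. The first and second antimiR-195 libraries were thus high, and the third and the fourth lay below the fourth hydrogel library and within the hydrogel range. In the first antimiR-195 library 33 of 37 members were above their own mean, and in the third and the fourth 8 and 10 were. Leaving out the third antimiR-195 library instead of the second raised the members' median to 0.42, and leaving out the third hydrogel library lowered it to 0.25.

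**Figure D4:**
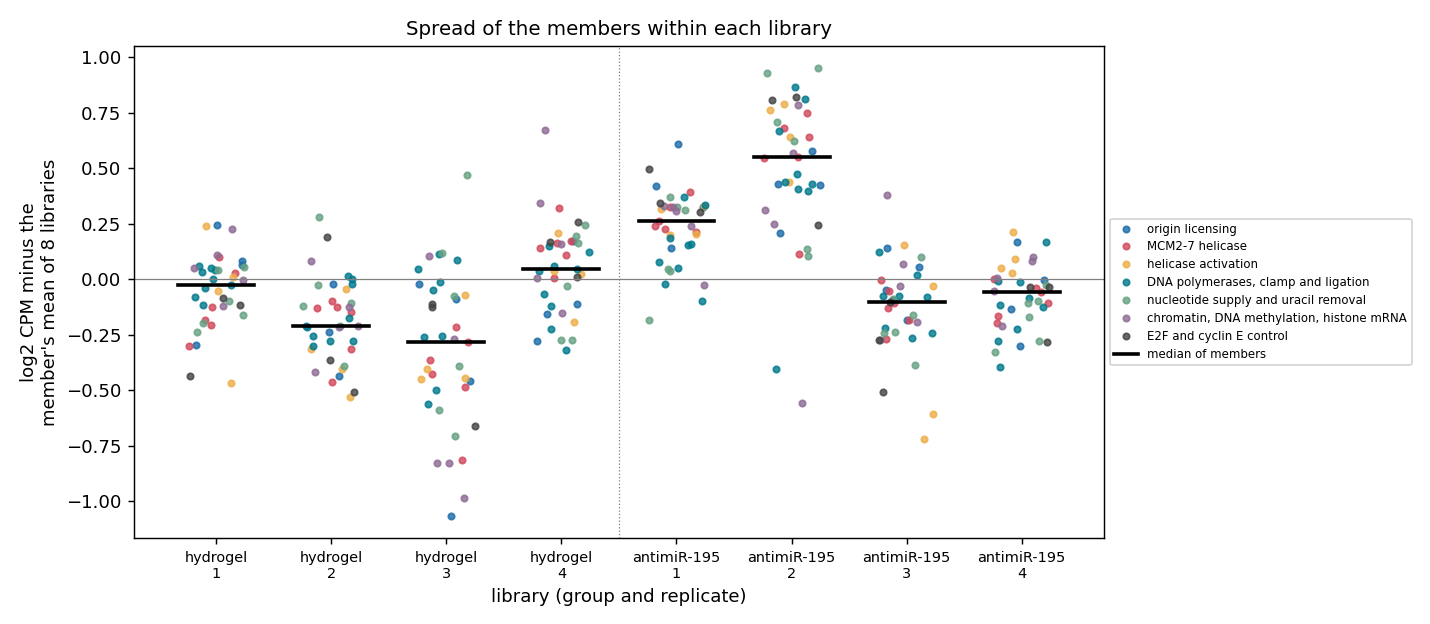
Deviation of every member from its own mean over the 8 libraries, in log2 CPM, by library, with points coloured by role and a bar at the median of the 37 members. The first and second antimiR-195 libraries sit above 0 and the third and the fourth slightly below it, inside the range of the hydrogel libraries.

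Markers of other cell types, the dependence on gene length and the alignment shares moved with the second antimiR-195 library. Alignments to more than 1 place made up 47.8% in it and 42.1% to 44.5% in the other 7, and reads in more than 1 gene 1.05% against 0.772% to 0.897%. Its summed marker level was the highest of the 8 for the 9 fibroblast and myofibroblast markers, 6607 CPM, against 4406 to 4730 CPM in the other antimiR-195 libraries and 3123 to 5752 CPM in the hydrogel libraries. The third hydrogel library had the lowest fibroblast sum. The 6 neutrophil markers summed to 71.8 CPM in the second antimiR-195 library and 25.4 to 36.2 CPM in the other 7, and the 10 macrophage and monocyte markers to 2390 CPM, against 1344 to 2160 CPM. The 4 atrial markers summed to 1950 CPM, against 522 to 985 CPM, with Sln at 0 in a library. The 5 endothelial markers were lowest in that library, 515 CPM, against 547 to 719 CPM. The summed levels of the 6 erythroid markers ranged from 404 to 1534 CPM with drug-free gel and from 510 to 1925 CPM with antimiR-195. The 7 T and NK cell markers summed to no more than 5.03 CPM and the 5 B cell markers to no more than 9.24 CPM, with Cd79a at 0 in a library. The part of these cell types and of the alignment shares in the members' difference was not tested. With the trend on gene length removed, the members' median was 0.30, and with the second antimiR-195 library left out as well it was 0.13.

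Other genes of the same pathway, 84 in 6 lists, were read from the same fit. None was called in edgeR's test, 2 had an unadjusted p below 0.05, and 68 of 84 had positive values, around a median of 0.10 with a range from -0.35 to 0.86. Without the second antimiR-195 library 53 were positive and the median was 0.06. The medians were 0.07 for other licensing genes (9 of 10 positive), 0.10 for origin firing and fork genes (11 of 14) and 0.20 for polymerase and clamp loader genes (17 of 19). They were 0.09 for nucleotide supply genes (11 of 12), 0.03 for replication chromatin genes (6 of 9) and 0.19 for S phase control genes (14 of 20). Wdhd1, which links the helicase to polymerase alpha, was at 3.12 ± 0.255 CPM with drug-free gel and 4.24 ± 0.639 CPM with antimiR-195, with no overlap. Its fold change was 0.44 ± 0.17, with 0.48 without the second antimiR-195 library and 0.32 without the fourth. Dscc1, a subunit of an alternative clamp loader, was at 0.720 ± 0.244 and 1.30 ± 0.556 CPM. Its fold change was 0.86 ± 0.37, and 0.55 without the second antimiR-195 library. It held only 9 to 37 counts in a library, and its fold change was 0.36 with limma-voom weights. In nucleotide supply Cmpk1, a pyrimidine nucleotide kinase, had a fold change of 0.18 ± 0.12. Other values were 0.29 ± 0.18 for Donson, 0.39 ± 0.20 for the clamp loader gene Rfc5, 0.21 ± 0.13 and 0.37 ± 0.24 for the histone chaperones Nasp and Asf1b, and 0.28 ± 0.19 and 0.27 ± 0.22 for Mcm8 and the origin firing kinase Cdc7. Cks1b and Skp2, which act in the turnover of a cyclin-dependent kinase inhibitor, had 0.52 ± 0.28 and 0.40 ± 0.25. Without the second antimiR-195 library the values were 0.18 for Cks1b, 0.21 for Rfc5, 0.18 for Asf1b and 0.11 for Nasp. Skp2 was at 0.18 and Donson at 0.19 without the third hydrogel library, Mcm8 at 0.13 without the second hydrogel library, and Cdc7 at 0.054 and Cmpk1 at 0.10 without the first antimiR-195 library.

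The 10 mitosis genes gave 9 positive values with a median of 0.29, and none was called. Ccnb1, the mitotic cyclin B1, was at 4.31 ± 1.18 CPM with drug-free gel and 6.53 ± 1.76 CPM with antimiR-195, a fold change of 0.60 ± 0.24, or 0.41 without the second antimiR-195 library. Cenpf, a kinetochore protein gene, was the exception at 19.8 ± 2.32 and 15.2 ± 1.84 CPM, a fold change of -0.38 ± 0.13. The summed level of the list was again highest in the second antimiR-195 library, 178.7 CPM, and lowest in the third hydrogel library, 84.8 CPM, the same libraries that were most often highest and lowest in the replication members.

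Fold changes were also set side by side for members with and without the printed letters, with no test. The 6 members with a seed match had a median of 0.37 and 5 of them were positive, and the 30 with a UTR and no match had a median of 0.32. Over all tested genes the medians were -0.0045 with a match and 0.010 without. Gins2, with an 8mer, had 0.38, Ung, with 2 matches, had -0.15, and Ccne1, with an 8mer and a 7mer-A1, had 0.36. The 13 members with an E2F letter string had a median of 0.32 and the 19 with a window and none 0.36. Among the 19 are E2f1 and Dut, whose windows lie within the gene, so letters before the GENCODE start were not searched there. Over all tested genes these medians were 0.032 and 0.0044. Among the other replication genes 20 of 68 with a window held a string, or 29.4%. Of the members whose window stretches are printed, Mcm5, Mcm6 and Cdc6 had positive fold changes and Pola1 did not. A letter match is not evidence that a factor or microRNA binds there.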

How the data were processed

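The 8 libraries were made from polyadenylated left ventricular RNA, extracted with TRIzol, with a TruSeq stranded mRNA kit, per the labels' protocols. STAR, HTSeq, DESeq and the build GRCm38 are named in the submitters' processing notes, whereas versions, annotation release and strand setting remain not given in the sources used here. Values used were the authors' deposited whole-number HTSeq counts per Ensembl gene, and the RPKM values the authors deposited for levels between genes. Counts of named genes (36345 of 38293 identifiers, by GENCODE M21) held all but 0.175% at most of the counts. Identifiers without a gene name were treated like the named ones. The summary rows of HTSeq were excluded from library sizes and tests. They include reads outside genes (6.38% to 7.55%), in more than 1 gene (0.772% to 1.05%) and aligned to more than 1 place (42.1% to 47.8%). Genes with near-identical copies or overlapping genes are therefore uncertain. Exon overlaps were taken over all GENCODE M21 transcripts of a gene, which need not be the exons the authors counted.

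Groups came from the drug label, and replicates were numbered in accession order and pair nothing. The test was edgeR 4.0.16 quasi-likelihood (R 4.3.3) on 8 libraries without covariates, after filterByExpr and TMM (factors 0.953 to 1.04), two-sided and adjusted over 13972 genes. The common coefficient of biological variation was 19.1%. CPM was computed from counts and TMM library sizes, and log2 values used a prior count of 2. Standard errors were derived from the F statistic. The fit was tested on simulated data. DESeq2 1.42.0, limma 3.58.1, other filters, factors, pseudocounts, a length correction and left-out libraries were tried. The members and lists were chosen with earlier results of these data known. Named genes were all members and, of each other list, the 2 with the smallest p, and cell type markers appear as sums. A gene that met this rule is not reported here.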

Additional observations from a re-analysis of the deposited data

Results flagged for a closer look

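In groups of 4 libraries, a value was looked at again where its gap to the nearest other library took most of the group's range by Dixon's test. Of 148 groups tested 7 met this, and about 1 in 20 would by chance. In the antimiR-195 group, Orc1 was at 1.12 CPM in the first library and at 0.778 to 0.821 CPM in the others. The second library stood high for Rfc3 with 8.53 CPM against 5.81 to 5.98 CPM, and for Chaf1b with 6.56 CPM against 3.70 to 4.04 CPM. It also stood high for 3 marker sums, the atrial cardiomyocyte list at 1950 CPM against 706 to 915 CPM, the neutrophil list at 71.8 CPM against 25.4 to 32.6 CPM, and the fibroblast and myofibroblast list at 6607 CPM against 4406 to 4730 CPM. In the hydrogel group, Rfc4 was low in the fourth library, at 4.995 CPM against 6.05 to 6.16 CPM. Thus 5 of the 7 values belong to the second antimiR-195 library, and what set them apart was not tested.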

How the results depend on the processing

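Across 18 alternatives no member, no other pathway gene and no gene at all was called. Of 918 values of 51 named genes, 898 kept their direction and 20, in 11 members, reversed; the cause was not tested. The members' median was 0.11 to 0.33 under the alternatives that kept all libraries and 0.14 to 0.43 with 1 library left out. It was 0.11 with limma-voom weights, 0.19 on log2(RPKM + 1), 0.30 on log2(RPKM + 0.1) and 0.14 without the second antimiR-195 library. Positive members numbered 27 to 33. Members at an unadjusted p below 0.05, 2 in edgeR's main test, numbered 0 without the third hydrogel or the second antimiR-195 library, 7 without the fourth hydrogel library, 4 without the fourth antimiR-195 library and 12 without the third, and 1 with no filter on low counts or without the first or second hydrogel or the first antimiR-195 library. Over all genes this number was 178 with edgeR, 193 with DESeq2, 333 with limma-voom and 428 with no filter. With 1 library left out and no other change, it also moved over all genes, of which 14092 to 14132 were tested. It was 311, 335 and 352 in the fits with 7, 4 and 12 such members. It was 104 and 260 in those with 0 such members, and 122 to 167 in those with 1. Whether the members rose more than all genes was not tested. With limma-voom weights the fold change was -0.0077 for Orc6, -0.017 for Mcm4, -0.058 for Rfc3, -0.092 for Rfc4, -0.0097 for Lig1 and -0.043 for Uhrf1. With the length trend removed and the second antimiR-195 library left out, an alternative chosen after seeing the data, it was -0.033 for Pold1, -0.059 for Rfc3 and 0.018 for Slbp. With 1 library left out at a time, fold changes ran from -0.16 to 0.34 for Uhrf1, -0.26 to 0.0024 for Ung, -0.012 to 0.40 for Gins1, -0.21 to 0.055 for Pola1, -0.015 to 0.23 for Pold1, -0.076 to 0.14 for Rfc3, -0.031 to 0.43 for Rfc4 and -0.25 to 0.029 for Slbp. No paired analysis was possible because the labels give no replicate numbers. Orc1, with 6 to 20 counts, and Dscc1, with 9 to 37 counts, are limited by depth.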
